A study of Mus musculus with 10 samples.

Results

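Wild-type interscapular brown adipose tissue (iBAT) of juvenile mice was described from its own libraries. The 5 samples labelled WT, of 10 samples in the series, were chosen by that label, and all 27267 genes listed for them were used. No comparison with the other genotype was made. Each WT sample is labelled as brown adipose tissue of a C57BL/6 male of 4 weeks in which *Mgp*, the gene of matrix Gla protein that the series inactivates in its other samples, is intact. The methods describe a chow diet, a regular light and dark cycle and 5 pairs of male mice, so each sample was taken as 1 mouse. The whole depot was extracted, so adipocytes, vessels, nerves and blood all contributed RNA.

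Brown fat burns fatty acids to make heat. Noradrenaline from sympathetic nerves acts on β-adrenergic receptors of the brown adipocyte, cyclic AMP and protein kinase A set lipolysis going, and the fatty acids released both fuel the mitochondria and open UCP1, which lets protons back across the inner membrane without making ATP. The tissue also makes fatty acids from glucose, takes up lipid from the blood through lipoprotein lipase, and activates thyroid hormone with the deiodinase encoded by *Dio2*. Many of its proteins belong to small families in which muscle, liver and general forms exist side by side, so which member is used is part of what defines the tissue.

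The values are normalized counts, which are reads per gene divided by a size factor of the library. Every value was a whole number of reads times a constant of its library, and between 10383398 and 21113489 reads per sample were counted on genes. The samples fell into 2 sets. Replicates 1 to 3 had 20154899 to 21113489 reads and replicates 4 and 5 had 10383398 and 11168546. Mitochondrial ribosomal RNA took 0.771 to 1.72% of the reads in replicates 1 to 3, and 6.50 and 8.57% in replicates 4 and 5. Whether depth or ribosomal RNA had a part in the differences between the sets given here was not tested. A gene with no read in a sample is under a floor of 3 reads, which is 2.15 to 5.19 normalized counts, and such floors cover counting error only. *Xist*, transcribed from the inactive X chromosome of females, had 6803 reads in replicate 2 and 2 to 30 in the other samples. The 4 Y-linked genes examined had 5 reads together in replicate 2 and 2000 to 3932 in the others. These reads go against the male label of replicate 2, which was kept. Leaving it out moved none of 28 class shares of reads by more than 1 SD, and of 19 marker list medians only that of hepatocytes, from 0.158 to 0.197 per kb. Single genes are given with replicate 2 included. *Mgp* was read in every sample, at 576, 489, 466, 1146 and 839 normalized counts in replicates 1 to 5.

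Of the 27267 listed genes, 24704 had a read in a WT sample, 15312 had a read in all 5, and 13484 reached a mean of at least 10 normalized counts. A mean of at least 1000 was reached by 2270 genes, and at least 10000 by 138. The reads were concentrated on few genes. The 10 genes with the highest mean took 28.2% ± 3.93 of the reads (mean ± SD, n = 5), and the 1000 most abundant genes of each sample took 70.5% ± 1.78. From 88 to 186 genes made up 50% of the reads of a sample, and 3745 to 4317 genes made up 90%. Among the reads of nuclear genes alone, 363 to 619 genes made up 50%.

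Of the 20 genes with the highest mean normalized count, 9 are encoded by the mitochondrial genome, and most of the others make, carry or burn lipid. *mt-Co1*, a core subunit of cytochrome c oxidase, led with 1493540, 1367740, 1117420, 509054 and 666573 normalized counts in replicates 1 to 5, or 6.65% of the reads on average. *mt-Cytb*, cytochrome b of complex III, followed with 994080, 936203, 597154, 802035 and 1111940. The order of the pair was not the same in all samples, since *mt-Cytb* was above *mt-Co1* in replicates 4 and 5 and under it in replicates 1 to 3.

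*Scd1*, the stearoyl-CoA desaturase that makes monounsaturated fatty acids, was the most abundant nuclear protein-coding gene, with 203379, 341790, 483248, 256726 and 546078 normalized counts, a mean of 366244 ± 145900. Its values in the 2 sets overlapped. *Fasn*, fatty acid synthase, had 156832, 289550, 386840, 74790 and 175522. Replicate 3 was highest for *Fasn* and replicate 4 lowest, and the sets overlapped. *Fabp4*, the fatty acid binding protein of adipocytes, had 101057, 92861, 87326, 242211 and 201347 normalized counts, so that the sets did not overlap. *Lpl*, lipoprotein lipase, also parted the sets, with 54609, 48302, 37635, 256681 and 149915. *Gpd1*, which makes glycerol 3-phosphate in the cytosol, varied less, with a mean of 110225 ± 20419. *Car3*, carbonic anhydrase of adipocytes and muscle, had a mean of 93488 ± 26817, and *Atp5b*, the catalytic β subunit of ATP synthase, 84914 ± 8830. *Gnas*, which encodes the G protein that couples β-adrenergic receptors to adenylyl cyclase, had a mean of 67013 ± 8183.

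*Ucp1* came at rank 20 by mean normalized count. It had 38421, 41322, 46191, 62428 and 116019 normalized counts in replicates 1 to 5, which is 0.373% of the reads on average. Both samples of the shallower set were above all 3 of the deeper set, and replicate 5 was highest.

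**Figure D1:**
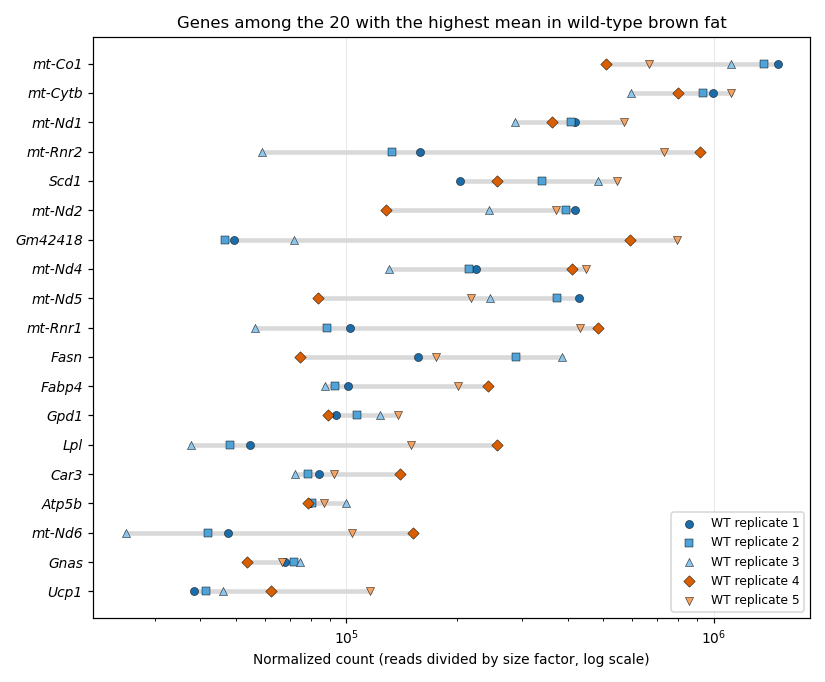
Genes among the 20 with the highest mean normalized count in wild-type iBAT, on a logarithmic axis of normalized counts. Each symbol is 1 sample (blue for replicates 1 to 3, orange for replicates 4 and 5) and the grey bar spans their range, which is widest for *Gm42418* (46552 to 793646) and narrow for *Atp5b* (78378 to 99510).

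Counts grow with the length of a transcript, so levels were compared between genes as normalized counts per kb of exon. On this scale the median gene with a read stood at 9.26 and the median gene with a mean of at least 10 stood at 56.1. After the mitochondrial genes and *Gm42418*, the highest levels per kb were those of *Scd1* (74866 ± 29824), *Cox8b* (41482 ± 9283), *Gpd1* (37226 ± 6896) and *Ucp1* (37210 ± 19678). *Cidea*, a lipid droplet protein of brown fat, followed at 32948 ± 4649, then *Car3* at 32631 ± 9360, *Fabp4* at 32292 ± 15987 and *Gpx3*, the secreted glutathione peroxidase, at 30251 ± 8519. *Cfd*, which encodes the adipokine adipsin, stood at 27800 ± 11608. From *Cox8b* to *Cfd*, each mean differed from the next by less than either SD, so neighbours in this order were within the spread of the samples, while *Cox8b* was above *Cidea* and *Gpx3* in all 5 samples.

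The 12 listed mitochondrial protein genes did not all show. The gene counts of STAR take a read only where it maps to a single place, so every word of 50 bases of each transcript was looked up in the transcripts of all other genes. The 7 abundant genes had 37.8 to 100% of their words to themselves. The other 5, *mt-Co2*, *mt-Co3*, *mt-Atp6*, *mt-Nd4l* and *mt-Nd3*, had 0 to 2.01% unique words and 0 to 30 reads per sample. *mt-Co2*, a subunit of cytochrome c oxidase as *mt-Co1* is, had 2, 0, 1, 4 and 0 reads. No level was therefore read for these 5 genes. The stretches printed here are the bases 301 to 350 of 3 transcripts (GENCODE, GRCm38, + strand, each within the single exon of its gene), chosen to show 2 genes with 0 to 4 reads per sample beside *mt-Cytb*. The stretch of *mt-Co2* lies at chrM:7313-7362, that of *mt-Co3* at chrM:8907-8956 and that of *mt-Cytb* at chrM:14445-14494.
mt-Co2: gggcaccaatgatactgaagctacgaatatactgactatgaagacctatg
mt-Co3: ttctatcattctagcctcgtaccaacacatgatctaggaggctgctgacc
mt-Cytb: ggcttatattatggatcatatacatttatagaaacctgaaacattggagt
The whole *mt-Co2* stretch also stands in the nuclear genes *Gm13341* and *Gm28661*, and that of *mt-Co3* in *Gm28437*. The *mt-Cytb* stretch stands in no other transcript of the annotation.

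*Gm42418* and *Mir6236* rank among the 20 highest levels per kb as well. *Gm42418* is a noncoding gene of chromosome 17 that RefSeq lists as a synonym of *Rn18s-rs5*, a sequence related to 18S ribosomal RNA, and 5.05% of its words were unique. It had 49298, 46552, 72034, 592620 and 793646 normalized counts, and the sets did not overlap. *Mir6236* had 439, 497, 486, 5996 and 8642 normalized counts, again with replicates 4 and 5 apart. Its mature sequence (RefSeq, GRCm38.p6, chr9:110281353-110281371, + strand) is printed with the seed, bases 2 to 8, in capitals, because reads of 50 bases are longer than the mature microRNA and its level here cannot be read as that of the mature form.
mmu-miR-6236: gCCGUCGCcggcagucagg

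Reads were also summed over 28 classes of genes. The mitochondrial protein genes took 26.7, 24.8, 17.7, 14.95 and 19.4% of the reads in replicates 1 to 5, the largest share of these classes. De novo lipogenesis, the making of fatty acids from acetyl-CoA, came next by the mean with 3.45, 5.61, 7.80, 2.98 and 5.55%, although mitochondrial rRNA took more in replicates 4 and 5 and lipid uptake genes more in replicate 4, and 21 of its 21 genes were above the median of all genes with reads. *Scd1* and *Fasn* carried most of this share. Beside them stood *Thrsp*, a lipogenic protein induced by thyroid hormone, with 19299 normalized counts per kb, the transketolase *Tkt* with 7147, and the ATP citrate lyase *Acly*, which supplies acetyl-CoA, with 5970.

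Fatty acid oxidation took a steadier share. It had 1.63, 1.67, 1.88, 1.76 and 1.79% of the reads, with an SD of 0.101 around 1.75, led per kb by *Acaa2* (20477), *Acadl* (19965) and *Acadvl* (13152), enzymes of the β-oxidation spiral. The TCA cycle took 2.09, 2.16, 2.43, 1.50 and 1.76%, and here replicates 4 and 5 lay under the others. A gene was said to part the sets where their samples did not overlap and the means were at least 2-fold apart. Of the 13484 genes with a mean of at least 10, 8.03% parted with replicates 4 and 5 higher and 9.19% with them lower. The nuclear subunits of the respiratory chain were all above the median of genes with reads: 46 of 46 in complex I, 4 of 4 in complex II, 10 of 10 in complex III and 16 of 16 in complex IV. Complex I took 1.29% ± 0.221 of the reads, complex II 0.443% ± 0.039, complex III 0.629% ± 0.093 and complex IV 0.873% ± 0.214, and ATP synthase took 1.29% ± 0.134. Branched-chain amino acid breakdown, a fuel pathway of brown fat, had the smallest SD relative to its share, 0.382% ± 0.016.

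Lipid uptake and binding took 1.44, 1.32 and 1.23% in replicates 1 to 3 and 3.58 and 2.41% in replicates 4 and 5. *Fabp4* and *Lpl* together made up 1.03, 0.935, 0.837, 3.05 and 1.95%, and the other 9 genes of the class 0.412, 0.382, 0.397, 0.534 and 0.454%. The median level per kb of the class had the opposite order, with 2005, 1733 and 2367 against 1307 and 443. In lipolysis the share of reads was lower in replicates 4 and 5, with 0.893, 0.8998 and 1.08% against 0.699 and 0.640%. Extracellular matrix genes took 0.671, 0.609 and 0.903% against 0.435 and 0.502%, and heat shock protein genes 0.296, 0.293 and 0.304% against 0.473 and 0.355%. These classes, with mitochondrial rRNA, mitochondrial tRNA and the TCA cycle, were the 7 of 28 whose sets did not overlap, or 6 of 27 without mitochondrial rRNA, from which the sets were formed. Of single genes with a mean of at least 10, 57.8% had sets that did not overlap, whatever the ratio and direction. In the whole tissue fewer cells of a type and less RNA per cell cannot be told apart.

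Translation genes had a modest share. The 82 cytosolic ribosomal protein genes took 0.355% ± 0.071 of the reads and the 78 mitochondrial ribosomal protein genes 0.438% ± 0.058. For the cytosolic genes this is what was counted as unique, since a median of 76.4% of their words were found in no other gene. Cholesterol synthesis took 0.066% ± 0.016. Glycolysis took 0.723% ± 0.176 and antioxidant genes with metallothioneins took 0.737% ± 0.133. Clock genes took 0.096% ± 0.013, and among them *Nr1d1*, the transcriptional repressor REV-ERBα, had 3362, 2919, 3809, 347 and 465 normalized counts, while *Per2*, another repressor of the clock, was higher in replicates 4 and 5 with a ratio of means of 3.79. Times of day at collection are not given in the sources used here.

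**Figure D2:**
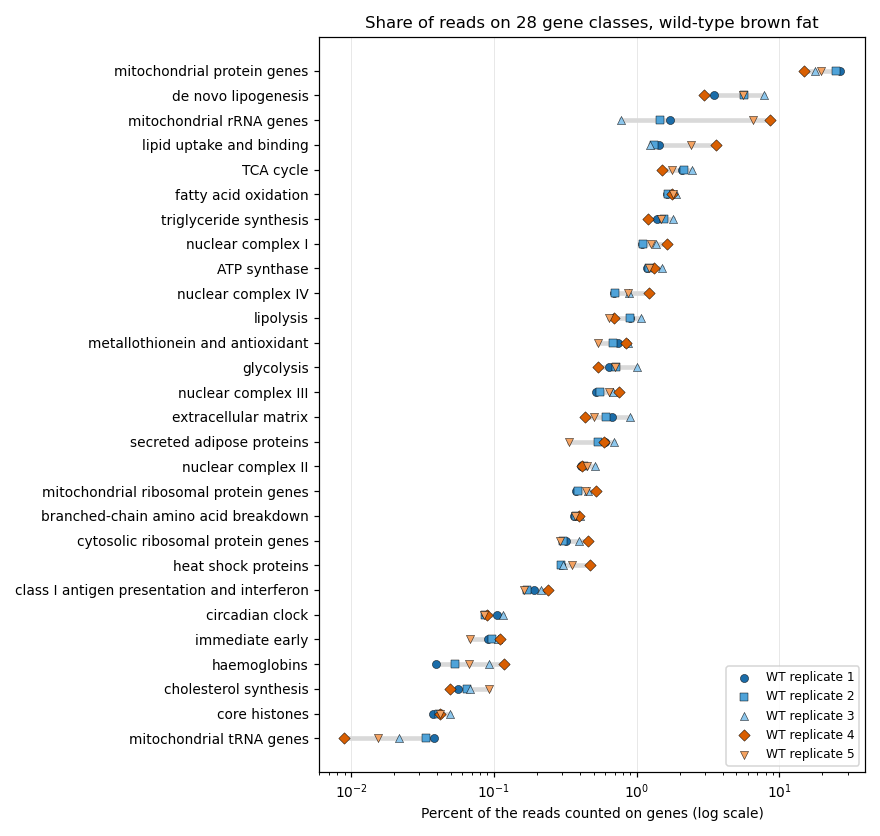
Percent of the reads on genes taken by each of 28 gene classes, on a logarithmic axis, with 1 symbol per sample (blue for replicates 1 to 3, orange for replicates 4 and 5) and a grey bar over their range. Mitochondrial protein genes (14.95 to 26.7%) stand at the top, followed in replicates 1 to 3 by de novo lipogenesis (3.45 to 7.80%) and in replicates 4 and 5 by mitochondrial rRNA, and the sets part for mitochondrial rRNA (0.771 to 1.72% against 6.50 and 8.57%).

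Choice among related genes was compared within 74 families, as normalized counts per kb. In 57 families a single gene was highest in all 5 samples, in 6 it was highest in 4 samples, and in 11 in 3 or fewer. The leading gene held over 50% of its family's summed level in 61 families and over 90% in 21. Ratios are given as the log2 of the leading gene over the next, averaged over the samples.

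*Ucp1* held 97.4% of the uncoupling protein family. Its levels per kb were 23485, 25258, 28234, 38159 and 70916 in replicates 1 to 5. *Ucp3*, the form known from skeletal muscle, had 764, 715, 995, 426 and 776 per kb, and *Ucp2*, the widely expressed form, averaged 246 ± 152. The log2 ratio of *Ucp1* to *Ucp3* was 5.58 ± 0.85, a ratio of 47.9, and it was 4.83 or more in each sample.

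Cytochrome c oxidase, the end of the respiratory chain, has subunits that come in a general form and in a form known from heart and skeletal muscle. The samples used a mixture. For subunits 4, 6a and 6b the general gene led, with *Cox4i1* at 17314 per kb against 75.9 for the lung form *Cox4i2* (log2 ratio 7.80 ± 0.37), *Cox6b1* at 26054 against 87.4 for *Cox6b2* (8.21 ± 0.82), and *Cox6a1* at 24580 against 18.7 for *Cox6a2*. *Cox6a2* had levels of 1.05, 0, 55.1, 4.31 and 33.1, which rest on 1, 0, 51, 2 and 13 reads. The log2 ratio of *Cox6a1* to *Cox6a2* was 8.98 in replicate 3 and 9.49 in replicate 5, and set against the floor of 3 reads it was at least 12.18 in each of the others.

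For subunits 7a and 8 the muscle-type gene led in 5 of 5 samples. *Cox8b* had 36444, 33619, 41818, 57209 and 38320 normalized counts per kb and *Cox8a*, the general form, 15138, 15527, 19389, 10668 and 8982, so the pair did not overlap. Their log2 ratio was 1.60 ± 0.61. *Cox7a1* had 8522, 8231, 10799, 17786 and 13989 per kb against 4363, 4394, 5490, 13760 and 10229 for *Cox7a2*. That log2 ratio was 0.73 ± 0.30, and in replicates 4 and 5 the order depends on the length correction. Before dividing by length, *Cox7a1* was the higher in replicates 1 to 3 and *Cox7a2* in replicates 4 and 5. *Cox7a2l*, which takes part in respiratory supercomplexes, had 1152 ± 241 per kb.

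The starts of these genes differ in their CG dinucleotides. The stretches printed here run from 250 bases before to 50 bases after the start given by RefSeq for GRCm38.p6, along the strand of the gene, and CG is in capitals. CG reads the same on both strands, so 1 search covers both. They were chosen as the pairs within which the muscle-type gene led, together with *Ucp1*. *Cox8b* lies at chr7:140900397-140900696 on the - strand, *Cox8a* at chr19:7217567-7217866 on the - strand, *Cox7a1* at chr7:30183921-30184220 on the + strand, *Cox7a2* at chr9:79759804-79760103 on the - strand and *Ucp1* at chr8:83290098-83290397 on the + strand.
Cox8b: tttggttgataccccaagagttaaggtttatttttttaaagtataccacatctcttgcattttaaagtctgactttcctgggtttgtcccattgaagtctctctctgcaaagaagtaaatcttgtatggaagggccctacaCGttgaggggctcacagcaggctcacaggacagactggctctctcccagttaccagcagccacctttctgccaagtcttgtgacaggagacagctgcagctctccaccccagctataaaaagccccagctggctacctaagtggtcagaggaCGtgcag
Cox8a: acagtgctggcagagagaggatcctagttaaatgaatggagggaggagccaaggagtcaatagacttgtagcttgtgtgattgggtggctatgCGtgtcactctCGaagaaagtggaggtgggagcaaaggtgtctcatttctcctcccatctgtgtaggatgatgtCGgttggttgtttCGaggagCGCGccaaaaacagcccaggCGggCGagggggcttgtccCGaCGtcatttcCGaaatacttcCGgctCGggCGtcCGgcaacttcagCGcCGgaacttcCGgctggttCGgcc
Cox7a1: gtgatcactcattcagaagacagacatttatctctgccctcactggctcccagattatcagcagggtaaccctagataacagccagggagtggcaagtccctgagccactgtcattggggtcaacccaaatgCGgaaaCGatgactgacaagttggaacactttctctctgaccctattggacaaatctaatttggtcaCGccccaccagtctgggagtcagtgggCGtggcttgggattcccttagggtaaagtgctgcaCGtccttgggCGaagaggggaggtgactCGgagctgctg
Cox7a2: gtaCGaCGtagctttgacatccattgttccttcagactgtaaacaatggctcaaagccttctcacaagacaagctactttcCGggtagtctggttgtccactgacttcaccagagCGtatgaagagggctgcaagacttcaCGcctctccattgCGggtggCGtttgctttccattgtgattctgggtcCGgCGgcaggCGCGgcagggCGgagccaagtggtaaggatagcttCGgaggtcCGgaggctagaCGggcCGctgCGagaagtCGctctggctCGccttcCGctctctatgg
Ucp1: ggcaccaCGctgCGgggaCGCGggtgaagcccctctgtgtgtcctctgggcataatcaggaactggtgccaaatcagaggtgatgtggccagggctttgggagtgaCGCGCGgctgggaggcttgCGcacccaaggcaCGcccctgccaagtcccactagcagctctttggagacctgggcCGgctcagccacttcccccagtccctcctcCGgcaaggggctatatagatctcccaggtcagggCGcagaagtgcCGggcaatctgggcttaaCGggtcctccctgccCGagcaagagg
*Cox8b* has 2 CG dinucleotides in this window, a number that 23.3% of the 32851 RefSeq windows of this kind do not exceed, and *Cox8a* has 19, which 28.1% reach. *Cox7a1* has 7, the median of all windows, and *Cox7a2* has 20, which 26.5% reach. In both of these pairs, chosen for the lead of the muscle-type gene, the leading gene had the fewer, while *Cox6a1*, which led its own family, has 32, which 9.52% reach. *Ucp1* has 15, which 34.6% of windows reach, against 5 in *Ucp3* and 21 in *Ucp2*. At least 1 CG stands in 94.6% of the windows. These counts describe the letters of the reference only.

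Other carriers and subunits of the mitochondrion showed the same kind of choice. *Slc25a4*, the ADP/ATP carrier of heart and muscle, was above *Slc25a5* in every sample (2617 ± 397 against 1531 ± 213 per kb), with a log2 ratio of 0.77 ± 0.07 that varied little. Of the words of *Slc25a5* 66.2% were unique, against 100% for *Slc25a4*, so the size of this ratio is that of uniquely counted reads. *Slc25a4* still had the higher mean with unique words taken as the length. *Atp5g3* held 98.6% of the summed level per kb of the genes for the c ring of ATP synthase, counted from reads that map to a single place. Of the words of *Atp5g2*, the next gene, 61.7% were unique, against 100% for *Atp5g3*. *Mfn2*, a mitofusin that brown fat uses to tether mitochondria to lipid droplets, led its group with 1276 ± 267 per kb. *Atpif1*, the inhibitor of ATP synthase, was at 113 ± 27.4.

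Genes of calcium cycling differed in their pattern. *Atp2a2*, the calcium pump of heart and many other tissues, had 592 ± 116 per kb and led in 5 of 5 samples, and the receptor *Itpr2*, a calcium channel of the endoplasmic reticulum, had 383 ± 50.4. *Atp2a1*, the fast muscle pump, had 2.47, 2.37, 322, 53.5 and 173, and *Ckm*, muscle creatine kinase, 1.47, 0.771, 277, 50.8 and 137. Both were near absence in replicates 1 and 2 and highest in replicate 3. *Acta1*, the actin of skeletal muscle, had 5.59, 4.39, 1050, 148 and 486 per kb, and the summed level of 19 skeletal muscle markers was 599, 565, 4750, 1775 and 3920. The part of muscle tissue in the values of *Atp2a1*, *Ckm* and *Cox6a2* was not tested. *Ckb*, the creatine kinase of brown adipocytes, averaged 167 ± 84.3, and *Sln*, sarcolipin, 1.08 ± 1.13.

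**Figure D3:**
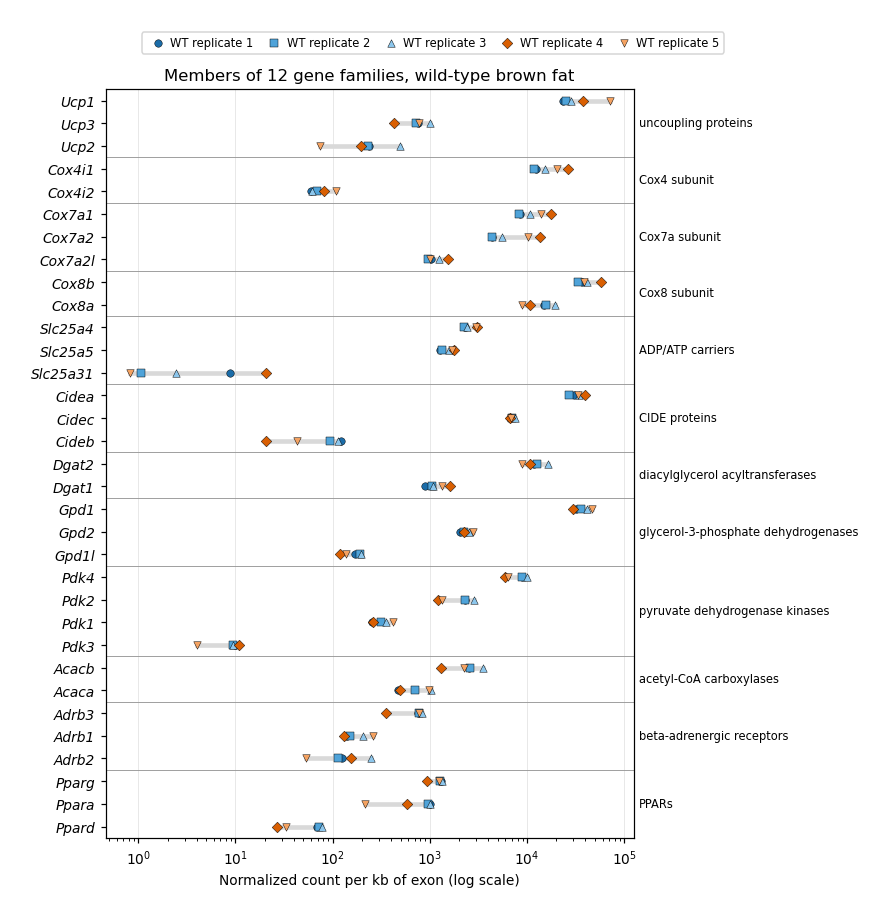
Levels of the members of 12 gene families as normalized counts per kb of exon, on a logarithmic axis, for the 33 members with a mean above 3. Each symbol is 1 sample (blue for replicates 1 to 3, orange for replicates 4 and 5), and families differ from a wide gap (*Ucp1* over *Ucp3*, log2 ratio 5.58) to overlap (*Pparg* over *Ppara*, 0.87 ± 0.92).

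In the families of fatty acid synthesis given here, the leading gene held from 57.5% of the summed level, for elongases, to 99.3%, for desaturases. *Scd1* held 99.3% of the desaturase family, with a log2 ratio to *Scd2* of 7.49 ± 0.67. *Acacb*, the acetyl-CoA carboxylase bound to the mitochondrial surface, was above the cytosolic *Acaca* in every sample (2430 ± 783 against 736 ± 265 per kb, log2 ratio 1.73 ± 0.47). Of the words of *Acaca* 69.6% were unique, against 100% for *Acacb*, and *Acacb* still had the higher mean with unique words taken as the length. Among elongases *Elovl6*, which extends C16 fatty acids, led with 1484 ± 867. *Elovl3*, an elongase induced in brown fat by cold, had 17.7, 45.9, 73.7, 572 and 1031 per kb. The samples of the 2 sets did not overlap for *Elovl3* and their means differed 17.5-fold.

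Fatty acids are activated by acyl-CoA synthetases, and *Acsl1*, the form of adipocytes, led with 3062 ± 447 per kb, ahead of *Acsl5* at 1396 ± 654. *Fabp4* was above *Fabp3*, the heart form, by a log2 ratio of 3.35 ± 1.08. *Cpt1b*, the muscle-type gate of fatty acid entry into mitochondria, was above the liver-type *Cpt1a* in every sample, at 90.8 ± 17.2 against 41.0 ± 8.45 per kb. Of the words of *Cpt1b* 21.4% were unique, and before the length correction *Cpt1a* was the higher in replicates 1 to 3 and *Cpt1b* in replicates 4 and 5.

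Triglyceride assembly was led by *Gpat4* (1144 ± 255 per kb), *Agpat2* (6533 ± 2845), *Lpin1* (846 ± 180) and *Dgat2* (12159 ± 2847), the enzymes of its successive steps. *Dgat2* was above *Dgat1* by a log2 ratio of 3.34 ± 0.56 in 5 of 5 samples. *Gpat4* was above *Gpam* in 5 of 5 samples too, by log2 ratios from 0.48 in replicate 2 to 3.01 in replicate 4. Glycerol 3-phosphate can come from glucose through *Gpd1*, which was above *Gpd2* by 3.96 ± 0.13, or from glycerol through glycerol kinase, encoded by *Gk*. *Gk* had 1019, 800, 451.4, 3038 and 4388 normalized counts, and replicates 4 and 5 were apart from the rest.

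Lipid droplets are coated by perilipins and CIDE proteins. *Plin1*, the perilipin of adipocytes, had the highest mean of its family (3366 ± 1007 per kb). It led in replicates 1 to 3, and *Plin2*, the widely expressed form, led in replicates 4 and 5 with 2021 and 3682 against 1938 and 2771. *Plin5*, the perilipin of oxidative tissues, had 1222 ± 259. *Cidea* exceeded *Cidec*, the form of white fat, by a log2 ratio of 2.23 ± 0.22 in all samples, and *Cidec* itself varied little (6954 ± 315).

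Among lipases *Pnpla2*, adipose triglyceride lipase, had 19202, 19169, 23527, 10348 and 11103 per kb, and *Lpl* 5212, 4610, 3592, 24497 and 14308. *Pnpla2* was therefore the highest lipase in replicates 1 to 3 and *Lpl* in replicates 4 and 5. *Lipe*, hormone-sensitive lipase, followed *Pnpla2* with 3872, 4237, 5130, 1662 and 2061, while *Mgll*, which cleaves the last fatty acid from glycerol, was 2.204-fold higher in the mean of replicates 4 and 5. *Angptl4*, a secreted inhibitor of lipoprotein lipase, had 7099, 6135, 8380, 2158 and 1388 normalized counts. Its order between the sets was the reverse of that of *Lpl*.

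Glucose use had clear leaders. *Slc2a4*, the insulin-sensitive transporter, held 94.4% of the glucose transporter family with 1686 ± 278 per kb, and *Slc2a1*, the general transporter, had 32.5 ± 11.03. *Hk2*, the insulin-regulated hexokinase, had 772, 851, 940, 1572 and 3290 per kb and *Hk1* 60.9 ± 15.2. *Aldoa* reached 12071 ± 4145 and *Pkm* 2360 ± 583, and *Pklr*, the liver and red cell pyruvate kinase, had no read in any sample. *Ldhb* and *Ldha*, the lactate dehydrogenases of heart and of muscle, had means of 4731 ± 552 and 3723 ± 1031 and did not differ beyond their spread. *Pdk4*, which switches pyruvate dehydrogenase off when fat is burned, had 8955, 8809, 10088, 5908 and 6450 per kb. It was above *Pdk2* by 2.05 ± 0.20 on the log2 scale.

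*Gapdh*, a glycolytic gene often used as a reference, was far apart between the sets, with 2287, 2716, 3956, 110 and 201 normalized counts. Of its words of 50 bases 74.9% were unique. In the glycolysis class it was the 1 gene of 16 that parted the sets with replicates 4 and 5 lower, beside 9.19% of all genes, and *Hk2* and *Pgam1*, 2 of 16, parted with them higher, beside 8.03%. The ratio of means of replicates 4 and 5 to replicates 1 to 3 was 2.85 for *Hk2* and 2.46 for *Pgam1*. Among the 13 genes that did not part, it ran from 0.54 for *Pfkm* to 1.59 for *Pgk1*.

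The receptors through which the tissue is driven were present. *Adrb3*, the β3-adrenergic receptor of adipocytes, had 750, 768, 829, 356 and 767 per kb and was above *Adrb1* in every sample (178 ± 55.4, log2 ratio 1.95 ± 0.45). Replicate 4 was lowest for *Adrb3*. Of α receptors, *Adra1a* had 148 ± 30.3, while *Adra1d* had 146, 205, 224, 17.0 and 24.6. *Prkar2b*, the regulatory subunit of protein kinase A typical of fat, led the kinase subunits with 5819 ± 1508, and the catalytic *Prkaca* had 1979 ± 412. *Adcy6* and *Adcy3*, adenylyl cyclases, were within the spread of one another at 523 ± 149 and 366 ± 107.

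*Dio2* differed more between the sets than any other gene of the brown adipocyte list apart from *Elovl3*. It had 698, 491, 376, 7122 and 7534 normalized counts, a ratio of means of 14.05, and *Dio1*, the deiodinase of liver and kidney, had no read. The thyroid hormone receptor *Thra* exceeded *Thrb* in all samples (458 ± 127 against 93.9 ± 8.52 per kb).

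Among transcription factors *Cebpa* had the highest level of those examined, 3425 ± 848 per kb, above *Cebpb* at 1455 ± 452. *Pparg*, the master regulator of adipocytes, had 1305, 1260, 1322, 930 and 1237, and *Ppara*, which drives fatty acid oxidation, 1005, 963, 1004, 579 and 218. *Pparg* was higher in each sample, but the log2 ratio of 0.87 ± 0.92 rested on replicate 5, where *Ppara* was lowest. *Esrra*, a regulator of mitochondrial genes, had 499 ± 89.4. *Ppargc1b* had 354 ± 81.3, and its relative *Ppargc1a*, which cold induces, had 180, 138, 95.1, 415 and 111, so that *Ppargc1a* was the higher of the pair in replicate 4 alone.

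*Prdm16*, which keeps brown adipocytes from a muscle or white fate, was read at 94.6, 75.1, 106, 58.7 and 70.9 per kb. *Ebf2* and *Ebf1* had means of 201 ± 62.1 and 182 ± 73.4, within the spread of one another, but their order differed between the sets. *Ebf2* was the higher in replicates 1 to 3 and *Ebf1* in replicates 4 and 5, with log2 ratios of 0.76, 0.66, 1.31, -1.13 and -0.73. *Irf4*, which acts with *Ppargc1a* in thermogenic transcription and in feeding and fasting, was uneven, with 82.4, 142, 657, 280 and 187. *Mlxipl* and *Srebf1*, which drive lipogenic genes in response to carbohydrate and insulin, had 845 ± 177 and 767 ± 378.

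Of the 14 genes in the list of secreted adipose proteins, which does not hold *Gpx3*, *Cfd* had the highest mean, with 26135, 24545, 32138, 44006 and 12175 per kb. *Adipoq*, adiponectin, had 10504 ± 1141. The receptor *Adipor2* was above *Adipor1* in every sample (2247 ± 481 against 609 ± 106). *Nrg4*, a growth factor that brown fat releases, had 351 and *Vegfa*, the vascular growth factor, 1578 ± 350. *Bmp8b* and *Fgf21*, signals known from stimulated brown fat, were at 0.492 ± 0.415 and 3.63 ± 5.16, near the floor. *Bmp6* was the highest BMP in every sample with 109 ± 20.0, and *Bmp4* and *Bmp7*, which drive white and brown adipocyte formation, had 4.42 ± 1.85 and 1.10 ± 1.10. *Mgp*, which binds BMPs, had 592 per kb.

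The labelled tissue was checked against markers of the cells it could hold. All 20 brown adipocyte markers were above the median of genes with reads, with a median of 771 per kb, and so were all 18 markers of adipocytes in general, with a median of 5190. The summed level of the brown markers was 122592, 114620, 139268, 170756 and 177311 in replicates 1 to 5. *Ucp1*, *Dio2* and *Elovl3* parted the sets, 3 of 20, all with replicates 4 and 5 higher, as did 8.03% of all genes. The lowest of the list were the developmental factors *Zic1* and *Lhx8*, at 16.9 and 16.3 per kb.

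Markers of other fat types had lower medians than the brown list. Those selective for white adipocytes had a median of 30.4, with 9 of 10 above the median of genes with reads, led by *Hoxa5* at 305 and *Nnat* at 183, and leptin, *Lep*, had 116 ± 46.5. Beige markers had a median of 3.72, with 2 of 7 above. Of these, *Slc27a1*, a fatty acid transporter that brown fat also uses, had 511, while *Tmem26* and *Tbx1* had 0.428 and 0.209.

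Endothelial markers were all above the median of genes with reads, 20 of 20, and had a list median of 361. *Aqp1*, a water channel of capillaries, had 3911 per kb and *Cdh5*, VE-cadherin, 1349. *Gpihbp1*, which carries lipoprotein lipase to the capillary wall, had 713. The endothelial sum was 13489, 12810, 12543, 21802 and 10112, so that replicate 4 was highest and replicate 5 lowest. Von Willebrand factor, *Vwf*, known from larger vessels, had 26.3. Lymphatic markers had a median of 6.58, and their defining factor *Prox1* had 1.26. Mural cells, with a median of 134 and 14 of 14 markers above the median of genes with reads, were led by *Rgs5*, a pericyte gene, at 1688.

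Progenitor markers had a median of 66.0, with 19 of 20 above the median of genes with reads. *Pdgfra*, a defining receptor of these cells, had 32.0, and *Dpp4*, a marker of their early stage, 3.83. *Ly6a*, encoding the stem cell antigen Sca-1, which endothelial cells also carry, had 359, 326, 342, 1342 and 801. It was the 1 marker of 20 that parted the sets with replicates 4 and 5 higher, and *F3*, *Cd248* and *Dlk1* parted with them lower, beside 8.03% and 9.19% of all genes. The list took 0.109, 0.102 and 0.122% of the reads in replicates 1 to 3, and 0.083 and 0.075% in replicates 4 and 5. Without overlap of the sets, the shares of the beige, lymphatic, macrophage, cartilage and bone, and proliferation lists were lower in replicates 4 and 5 too. Those of the general adipocyte, T and NK cell, and hepatocyte lists were higher there. Proliferation genes had a median of 8.87, with 6 of 14 above the median of genes with reads, among them *Mki67* at 12.4 and *Pcna* at 94.6. Of the 14, 5 parted the sets with replicates 4 and 5 lower and 0 with them higher, beside 9.19% and 8.03% of all genes.

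Of the immune lists macrophages had the highest median. It was 31.4 with 11 of 16 above the median of genes with reads, led by *Lyz2* at 440 and *C1qa* at 234. The neutrophil and mast cell list had a median of 16.7 with 7 of 13 above, and its highest genes were *Kit*, the receptor of mast cells and other cells, at 62.2 and the mast cell protease *Mcpt4* at 38.0. *Kit* was highest in replicate 5, at 163, and without that sample its mean was 37.1. T and NK cell genes had a median of 2.90 and B cell genes one of 2.85, with *Ighm* at 82.8. Schwann cell genes were present, with *S100b*, which brown adipocytes also make, at 822 and *Pmp22* at 414. *Th* and *Dbh*, genes of noradrenaline synthesis whose transcripts reside in distant nerve cell bodies, had 0.062 and 0. Erythroid genes had a median of 966 with 6 of 7 above the median of genes with reads, and a sum of 8027, 10962, 18706, 25703 and 16210 per kb. The haemoglobin genes among them had 10.7 to 46.8% unique words, and with unique words as length the erythroid median was 4324. Hepatocyte, keratinocyte, and cartilage and bone lists had medians of 0.158, 1.43 and 0.988. In the liver list *Cyp2e1*, a cytochrome P450, had 186, 84.0, 248, 1039 and 451.5, a mean of 402, or 242 without replicate 4, and the sets parted. *Alb*, albumin, had 0.435.

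**Figure D4:**
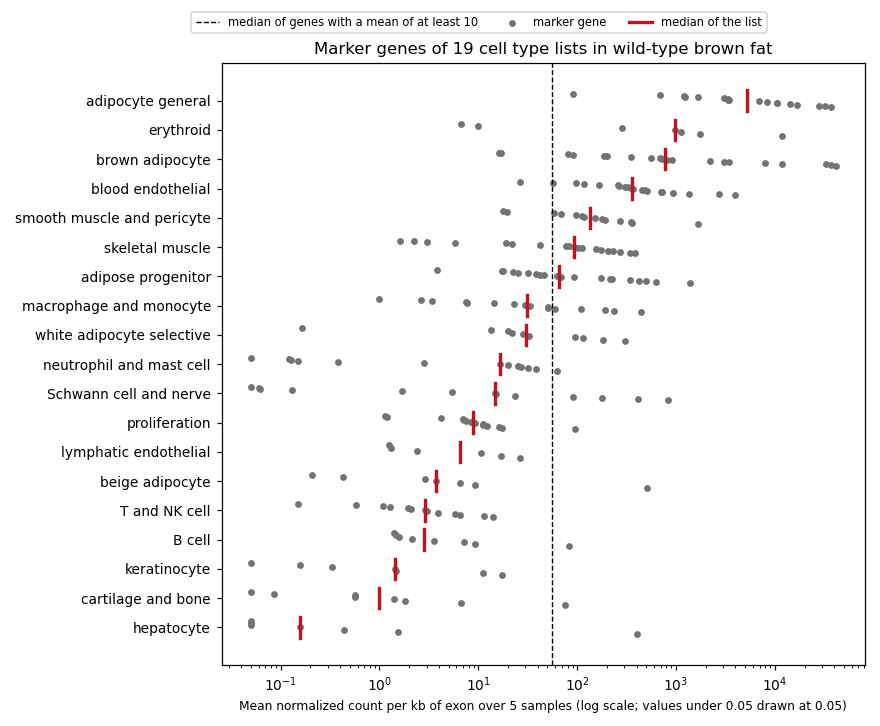
Levels of single marker genes (grey points, mean of 5 samples, normalized counts per kb of exon on a logarithmic axis, with values under 0.05 drawn at 0.05) in 19 lists, with the list median as a red bar and the median of genes with a mean of at least 10 as a dashed line. The general adipocyte (5190), erythroid (966), brown adipocyte (771), endothelial (361), smooth muscle and pericyte (134), skeletal muscle (93.4) and progenitor (66.0) medians stand above the line at 56.1 (the erythroid one at 4324 if unique words are taken as length), and hepatocyte markers (0.158) far under it. By sample, the skeletal muscle median was 1.47, 1.89, 235, 53.5 and 142 in replicates 1 to 5, under the line in replicates 1, 2 and 4.

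The spread between mice was small within replicates 1 to 3 and larger elsewhere. Over the 13484 genes with a mean of at least 10, the median coefficient of variation was 0.123 within replicates 1 to 3, 0.176 within replicates 4 and 5 and 0.265 over all 5 samples. After counting error was taken off, it was 0.0974, 0.138 and 0.243. Counting error was thus a small part of the spread over all 5. Without replicate 2, whose sex-linked genes go against its label, the median was 0.122 in the remaining pair of replicates 1 and 3 and 0.283 over the 4 samples. Between single samples, the median absolute difference per gene of log2(normalized count + 1) was 0.130 for replicates 1 and 2, 0.241 to 0.246 for replicate 3 against these, 0.359 for replicates 4 and 5, and 0.486 to 0.6002 across the sets.

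The steadiest genes with a mean of at least 1000 were *Pank1*, a pantothenate kinase of coenzyme A synthesis, with 6327, 6174, 6421, 6156 and 6190 normalized counts and a coefficient of variation of 0.018, then *Araf*, a RAF kinase, with 0.025, *App*, the amyloid precursor protein, with 0.029, *Ywhae*, a 14-3-3 protein, with 0.029 and *Ptpa*, an activator of protein phosphatase 2A, with 0.032. None of these is specific to fat. *Ctnnb1*, *Cpd*, *Ivd*, *Tollip* and *Chd4* completed the 10 steadiest, at up to 0.042. The most variable were *Xist* (2.19), *Hsph1* (1.23), *Mir6236* (1.20), *Dio2* (1.15) and *Gm42418* (1.15), and without replicate 2 *Xist* had 1.47 to 44.0 normalized counts. *Sc5d*, an enzyme of cholesterol synthesis, was high in replicate 5 alone, with 607, 638, 544, 558 and 2871.

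By the same rule, 1083 of 13484 genes (8.03%) parted the sets with replicates 4 and 5 higher, and 1239 (9.19%) with them lower. The 2 sets were formed from depth and mitochondrial rRNA, so these counts are given with no test. The median ratio of the set means over all these genes was 1.005. Higher in replicates 4 and 5 with means of at least 1000 were 177 genes and lower were 120.

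*Chchd2*, a protein of the mitochondrial intermembrane space, had 849, 945, 1223, 9762 and 6628 normalized counts. *Etfb*, which passes electrons from fatty acid oxidation to the respiratory chain, had 723, 666, 995, 8220 and 4610, with 55.2% of its words unique. *Hsph1*, a chaperone, had 486, 448, 321, 4315 and 1319, and *Tmed5*, a protein of early secretory vesicles, 2148, 2163, 970, 11426 and 14148. Each was higher in both samples of the shallower set.

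Lower in replicates 4 and 5, after *Gapdh* (19.2-fold by the means), were *mt-Tl1*, a mitochondrial leucine tRNA (16.5-fold), *Tpt1*, a growth-related protein (15.8-fold), *Nr1d1* (8.27-fold) and *Plxna1*, a semaphorin receptor (6.91-fold). *Tpt1* had 3469, 3562, 4030, 180 and 287 normalized counts. *Gm20721*, *Impdh1*, *Angptl4*, *Abca2* and *Ampd2* followed at 3.70 to 5.26-fold.

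The members of classes can be read against the shares of 8.03% and 9.19% over all genes. Of 46 complex I genes 9 parted higher and 1 lower, of 82 cytosolic ribosomal protein genes 24 higher and 10 lower, and of 20 matrix genes 0 higher and 5 lower, among them *Col1a1* and *Col6a1*. Fatty acid oxidation had 1 of 18 higher, which was *Etfb*. Genes that share sequence parted more often. Of 95 genes with under 20% unique words 49.5% parted the sets, of 1025 with 50 to 80% 23.3%, and of 7304 with at least 99% 15.8%. Short genes parted more often too: of 433 genes with under 1 kb of exon 26.8% were higher and 17.1% lower, against 5.51% and 7.51% of 2358 genes with at least 8 kb. The part of read mapping and of transcript length in the difference between the sets was not tested.

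**Figure D5:**
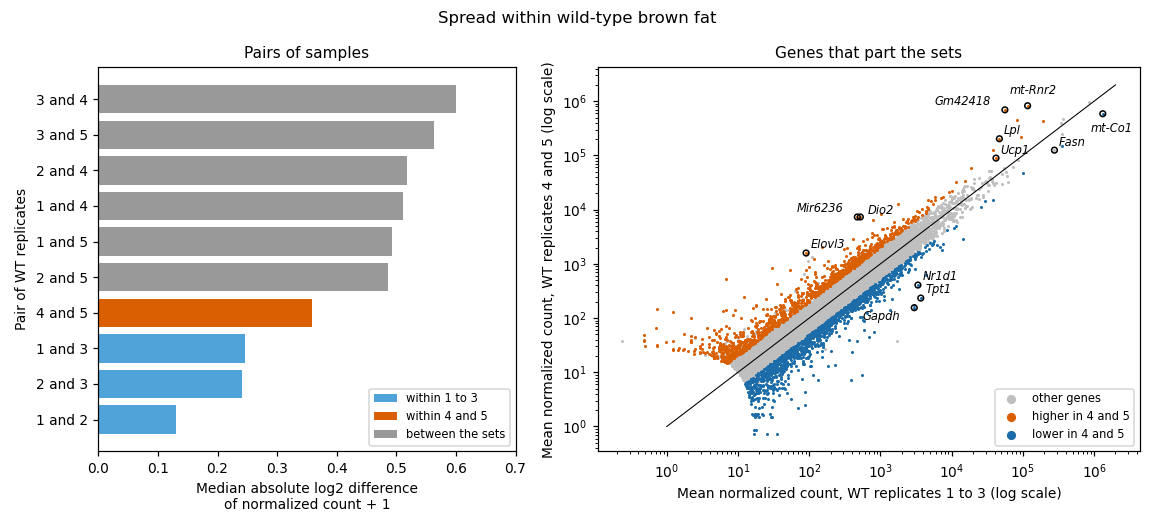
Left, the median absolute difference of log2(normalized count + 1) between each of the 10 pairs of samples over 13484 genes, from 0.130 for replicates 1 and 2 to 0.6002 for replicates 3 and 4. Right, the mean normalized count in replicates 4 and 5 against that in replicates 1 to 3 on logarithmic axes, 1 point per gene, with the 1083 higher and 1239 lower genes coloured and 12 genes with a set at 0 not drawn.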

How the data were processed

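RNA of interscapular brown fat from the 5 wild-type mice was sequenced by the authors with single reads of 50 bases (SMARTER mRNA-Seq kit). As their methods state, reads were mapped to mm10 and counted per gene with STAR, and the counts of each library were divided by its DESeq2 size factor. The unit of the deposited values is thus a signal, normalized counts, with no value below 0. The annotation release and strand setting are not given in the sources used here, so reads of overlapping or antisense genes may not be separated. No row was left out, and 0 columns of unknown origin were found.

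Reads were recovered as multiples of the smallest step in each library, and 100% of the values were whole within 0.01 reads. Levels per kb used merged exons of the GENCODE annotation of GRCm38, which held 25941 of the listed symbols (95.1%), 269 of them through RefSeq synonyms. Unique words are words of 50 bases found in the transcripts of no other gene. The 2 sets of samples, the gene lists, the families and the cell type markers were chosen with earlier results of these data known. With a single group there was no test, and values are means ± SD over 5 samples. A list is described by its counts and median, beside the median of all genes with reads.

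Genes are named if they are among the 20 highest by mean normalized count or per kb, belong to a list, or, with a mean of at least 1000, are among the 10 steadiest, the 10 most variable or the 10 with the largest ratio between the sets in each direction. Nuclear genes that hold a printed mitochondrial stretch are named as well. Some genes that the rule names are not reported here.

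Alternatives were other length measures, pseudocounts of 1 and 10, other filters and thresholds, totals without mitochondrial rRNA, thinned reads, each sample left out, and each set alone. Unique words as length and pairwise differences were added after the data were seen. Scripts ran in Python 3.11.15 with numpy 2.4.6, pandas 2.3.3, scipy 1.17.1 and matplotlib 3.10.9, and were tested on simulated data.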

Additional observations from a re-analysis of the deposited data

Results flagged for a closer look

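In each group of 5 values, the highest or lowest sample was called apart from the rest where its gap to the nearest other exceeded 0.71 of the whole range. Of 121 results looked at, 9 met this, and chance flags about 1 in 20 groups. None of the 28 class shares was among them. Of the 19 summed marker levels per kb, 4 were. White adipocyte markers were highest in replicate 5, at 1024 against 733 to 785 in the others. Endothelial markers were highest in replicate 4, at 21802 against 10112 to 13489. Neutrophil and mast cell markers were highest in replicate 5, at 359 against 167 to 212, with *Kit* at 163 per kb there. Cartilage and bone markers were lowest in replicate 4, at 51.2 against 90.2 to 106.

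Of the 74 log2 ratios of a leading gene to the next, 5 were flagged in the same way. In replicate 5 the ratio of *Pparg* to *Ppara* was 2.51, against 0.38 to 0.68 in the other samples. There too, *Cebpa* to *Cebpb* was 1.75 against 1.07 to 1.23, *Cfd* to *Adipoq* was 0.15 against 1.43 to 1.90, and *Gpx3* to *Gpx1* was 2.62 against 3.42 to 3.68. In replicate 4, *Bmp6* to *Bmp1* was 2.38 against 1.31 to 1.54. All 9 lie in replicates 4 and 5, the samples with the fewest reads and the most mitochondrial rRNA. Their part in these values was not tested.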

How the results depend on the processing

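No paired analysis was possible because 1 group was described and its results come from no test. The share of reads on mitochondrial rRNA was 7.53% in replicates 4 and 5 alone. With means at least 1.5-fold apart, 2385 genes were higher and 2519 lower in replicates 4 and 5, and with 4-fold 198 and 198. With a mean of at least 1, 1923 were higher and 2279 lower, and with a mean of at least 50, 713 and 755. Library totals without mitochondrial rRNA as the scale, in place of the size factors, gave 911 higher and 1500 lower. That scaling moved the median gene by -0.14 on the log2 scale in replicate 5 and by 0.03 to 0.04 in the others. Leaving out each sample in turn gave 1064 to 1408 higher and 1178 to 1646 lower. The leading gene was the same in 66 of 74 families with the longest transcript as length, in 61 without a length correction, in 72 to 74 with a sample left out, in 70 in replicates 1 to 3 alone, in 65 in replicates 4 and 5 alone, and in 54 under all 11 settings. With 1 sample left out the leader changed in the RXR, EBF and LXR families only. Of the class shares, 222 recomputed values moved by less than 1 SD and 1 by more. Of the log2 ratios, 144 moved by less than the SD and 4, each with a gene near the floor, by more. Of the list medians, 115 moved by less and 37 by more, 19 of them on the scale without length correction. The erythroid median was 4324 with unique words as length. Without replicate 2 the leaders of all 74 families were the same, and 1222 genes were higher and 1305 lower. Genes with under 3 reads in a sample, up to 5.19 normalized counts, could not be told from absent ones.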
